A study of Mus musculus with 9 samples.

Results

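Predicted transcripts are loci that carry a provisional symbol, either Gm with a number or a RIKEN clone name ending in Rik. The 140 transcripts described here are those that stood higher in the nucleus than in the cytoplasm of wild-type (WT) mouse oocytes, out of 3411 predicted transcripts and 23235 named rows in the deposited expression table. A member had at least 5 FPKM (fragments scaled to transcript length and library total) in the WT nucleus and a ratio of WT nucleus to WT cytoplasm of at least 2. Its ratio of MTR4-null nucleus to WT nucleus was below 4, each ratio being taken after adding 1 FPKM. The members were thus chosen by their values in the WT nucleus, the WT cytoplasm and the MTR4-null nucleus. There were 107 Rik and 33 Gm symbols, on 20 chromosomes.

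Libraries of total RNA, depleted of ribosomal RNA, came from the separated nuclei and cytoplasms of oocytes of day 21 mice, with 10 nuclei or 10 cytoplasms in each sample. The labels list 2 libraries of MTR4-null nuclei, 3 of WT nuclei, 2 of MTR4-null cytoplasms and 2 of WT cytoplasms. The oocytes were opened by micromanipulation in both genotypes. How the null allele was made, which promoter drove any recombinase and the strain are not stated in the labels used here.

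The deposited table has 1 column for each combination of genotype and compartment, so every value below is the authors' value for a whole group. There is no spread between replicates in it. No difference below has a test, an SD or a replicate check, and words such as higher and lower compare these 4 columns and nothing else. The read depth behind the columns is unknown, and FPKM is a relative measure. Less RNA per cell and a change in the other RNAs of the same library cannot be told apart.

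MTR4 is an RNA helicase of the nucleus. It works with adaptor complexes to feed RNA to the exosome, the 3′ to 5′ exonuclease that trims the precursors of ribosomal and small nucleolar RNAs and degrades short-lived noncoding RNAs, promoter upstream transcripts and misprocessed pre-mRNA. Many long noncoding RNAs are kept in the nucleus, near the place of their synthesis, while most mRNAs are exported. Growing oocytes store large amounts of mRNA in the cytoplasm for use after transcription has stopped.

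The transcript of Mtr4 itself, listed as Skiv2l2, stood at 2.91 FPKM in MTR4-null nuclei against 16.2 FPKM in WT nuclei, and at 2.51 FPKM in MTR4-null cytoplasms against 21.6 FPKM in WT cytoplasms. All 13 oocyte markers of a list were above 0 in every column, with sums from 7883 to 13022 FPKM. The 20 granulosa cell markers summed to 93.6 FPKM in MTR4-null nuclei and 131 FPKM in WT nuclei, and to 66.8 FPKM in MTR4-null cytoplasms and 92.1 FPKM in WT cytoplasms. Of the 18 with at least 1 FPKM in a column, 4 were at least 2-fold higher and 4 lower in the MTR4-null nucleus after adding 1 FPKM. Over all rows with that level the shares were 23.9% and 12.3%. Cyp11a1 had 1.47 FPKM in MTR4-null nuclei and 21.3 FPKM in WT nuclei, and Hsd17b1 had 6.15 FPKM and 0.424 FPKM. The part of these markers in the differences below was not tested. Small RNA genes, recognized by symbol alone, made up 51.0% of the MTR4-null nucleus column and 55.6% of the WT nucleus column. Their shares were 34.4% of the MTR4-null cytoplasm column and 4.26% of the WT cytoplasm column. Much of this was 1 row in a column. The highest small RNA gene had 370466 of 880989 FPKM in MTR4-null nuclei and 361725 of 854286 FPKM in WT nuclei. In MTR4-null cytoplasms it was 100235 of 433013 FPKM. The part of this shift in the differences was not tested either.

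In the reference annotation many members are no longer predictions. RefSeq matched 99 members by symbol and 39 by an older name. Of the other 2, it had no entry for 1 and gave 1 as an older name of a gene in another row. It classed 79 of the 140 (56.4%) as long noncoding RNA (lncRNA), 48 (34.3%) as protein coding and 10 (7.14%) as pseudogenes, with 1 T cell receptor V segment and 2 without a class. Among the 492 other predicted transcripts with at least 5 FPKM in WT nuclei, which missed the ratio, 18.3% were lncRNA and 75% were protein coding. The members' share of lncRNA was thus the larger one. Both sets share the 5 FPKM floor but not the level, with a median of 8.94 FPKM for the members and 15.8 FPKM for the others in the WT nucleus, and the difference between the shares was not tested.

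Several members now have names. The coding ones include Hypk, whose protein accompanies the N-terminal acetyltransferase NatA, Rmi2, a subunit of the complex around the BLM helicase, Mcmdc2, an MCM-domain protein of meiotic recombination, and Radx, which binds single-stranded DNA at replication forks. Cfap206, Cfap74 and Cfap47 encode cilia- and flagella-associated proteins, and Ndufaf8 encodes an assembly factor of respiratory complex I. Named lncRNAs among the members are Zfas1, Snhg14, Plut, Rab10os, Ctrcos, Slc36a1os and Prkag2os1.

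GENCODE gave a model for 132 members. Of these, 53 (40.2%) overlapped a coding gene on the opposite strand, against 29.1% of the other predicted transcripts. The members had a median of 3 exons and 1904 spliced bases, against 4 exons and 2397 bases in the others. A single exon was annotated for 12.1% of members and 10.0% of the others, and median GC content was 47.8% against 47.9%. Members shared more sequence with other loci: a median of 3.90% of their 31-base words also occurred in another gene's transcripts, against 0.110% for the others. Reads from such stretches can be counted at either locus.

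The choice of members fixes their WT values, which are given as a description. Together they summed to 2835 FPKM in MTR4-null nuclei and 3930.2 FPKM in WT nuclei, and to 1375 FPKM in MTR4-null cytoplasms and 482 FPKM in WT cytoplasms. These sums are 0.322% of the MTR4-null nucleus column and 0.460% of the WT nucleus column, and 0.318% of the MTR4-null cytoplasm column and 0.116% of the WT cytoplasm column. The median member stood at 6.62 FPKM in MTR4-null nuclei and 8.94 FPKM in WT nuclei, and at 3.35 FPKM in MTR4-null cytoplasms and 1.21 FPKM in WT cytoplasms. The numbers at 0 FPKM were 0 in each nucleus, 4 in the MTR4-null cytoplasm and 9 in the WT cytoplasm.

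**Figure D1:**
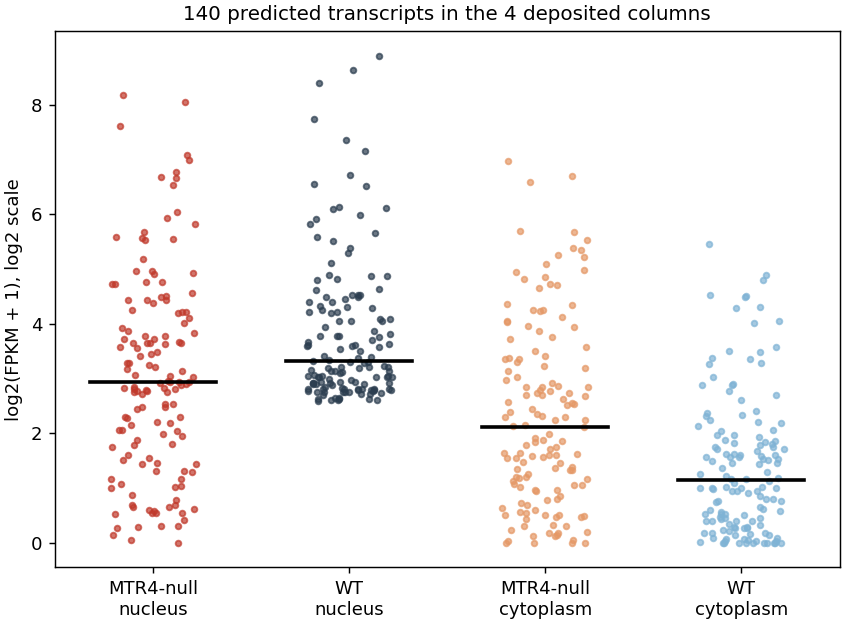
Each point is 1 of the 140 predicted transcripts, with log2(FPKM + 1) on the vertical axis and the 4 deposited columns side by side. Black lines are medians, at 6.62 FPKM in MTR4-null nuclei, 8.94 FPKM in WT nuclei, 3.35 FPKM in MTR4-null cytoplasms and 1.21 FPKM in WT cytoplasms. The lower edge of the WT nucleus column is the 5 FPKM limit of the rule.

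The MTR4-null cytoplasm was the single column that no part of the rule used. There, 105 of the 140 members had at least 1 FPKM, against 76 in the WT cytoplasm, and 56 had at least 5 FPKM, against 24 in the WT cytoplasm. The levels of the members in it followed those in the MTR4-null nucleus: across the 140 members, Pearson's r of log2(FPKM + 1) was 0.92. The same r was 0.92 over all 14270 rows kept, those with at least 1 FPKM in a column, so that the members were like the rest of the table here. Transcripts are not independent replicates, and all values of a column come from the same libraries.

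Between genotypes, differences are MTR4-null minus WT on the log2(FPKM + 1) scale, which understates differences of low transcripts. In the nucleus the median member differed by -0.87, with quartiles of -1.55 and -0.01. In the MTR4-null nucleus, 64 of 140 members (45.7%) were at least 2-fold lower, against 12.3% of all rows kept and 12.3% of rows with at least 5 FPKM in the WT nucleus. At least 2-fold higher were 12 members (8.57%), against 23.9% and 13.2%, a count that the rule's cap on the nuclear ratio holds down. The median of all rows kept was 0.21. Because WT nuclear values chose the members, these counts are descriptions.

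In the cytoplasm the direction was the opposite one. The median member differed by 0.74, and 59 members (42.1%) had a cytoplasmic value at least 2-fold higher in MTR4-null, against 15.0% of all rows kept and 7.44% of rows with at least 5 FPKM in the WT nucleus. At least 2-fold lower were 11 members (7.86%), against 21.4% and 30.9%. The median of all rows kept was -0.26. Low WT cytoplasmic values were a condition of membership, so this difference too shares a column with the rule. After centring on rows expressed in every column, the nuclear median was -1.03 over the members and 0.04 over all rows kept, and the cytoplasmic median was 1.06 over the members and 0.06 over all rows kept.

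The joint pattern separated the members into groups. At least 2-fold lower in the nucleus and at least 2-fold higher in the cytoplasm of MTR4-null oocytes were 18 members (12.9%), a pattern held by 0.736% of all rows kept. Lower in the nucleus with less than a 2-fold difference in the cytoplasm were 36 (25.7%, against 6.48% of all rows kept), and higher in the cytoplasm with less than a 2-fold difference in the nucleus were 29 (20.7%, against 4.64%). In both compartments 12 members (8.57%) were higher, against 9.59% of all rows kept, and 10 members (7.14%) were lower, against 5.07% of all rows kept. Under 2-fold in both were 34 members (24.3%, against 43.3% of all rows kept), and 1 member, 1700025N23Rik (0.714%, against 15.8%), was lower in the cytoplasm alone. Both WT columns that chose the members enter these patterns, and the cap limits those with a higher nucleus. The counts are thus descriptions, and the patterns were not counted in other rows under the same thresholds.

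**Figure D2:**
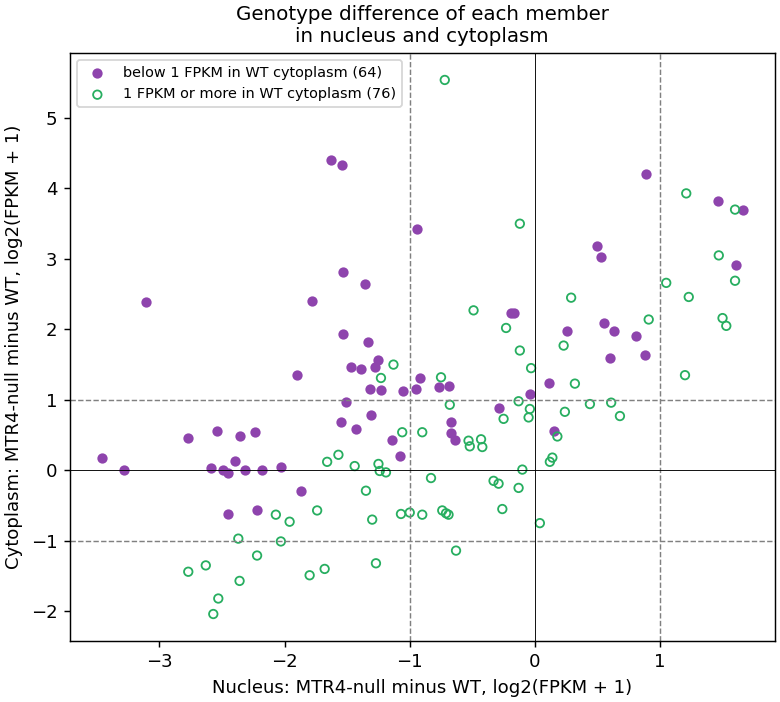
Each point is 1 member, with its MTR4-null minus WT difference of log2(FPKM + 1) in the nucleus on the horizontal axis and in the cytoplasm on the vertical axis. Dashed lines mark 2-fold. Filled points are the 64 members below 1 FPKM in WT cytoplasms and open points the other 76. The upper left corner holds the 18 members lower in the nucleus and higher in the cytoplasm, and the upper right corner the 12 higher in both.

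Within MTR4-null oocytes, the nucleus stood above the cytoplasm by a median of 0.86 over the members, against 2.26 in WT, where the rule demands at least 1. In MTR4-null oocytes the nucleus was at least 2-fold higher for 56 members (40.0%), against 17.0% of all rows kept and 15.6% of rows with at least 5 FPKM in the WT nucleus, and at least 2-fold lower for 2 members, 1700092M07Rik and Gm5643 (1.43%), against 1.84% and 0.568%. In WT oocytes the rule set the count at 140 higher and 0 lower, against 12.4% and 4.71% of all rows kept and 9.09% and 1.64% of rows with at least 5 FPKM in the WT nucleus. Over all rows kept, the median compartment difference was 0.52 in MTR4-null oocytes and -0.04 in WT oocytes. When the columns were centred on the median log ratio of rows expressed in every column, that median became 0.03 in MTR4-null oocytes, the members' median became 0.40 and the count was 22 members, or 15.7%, against 6.27% of all rows kept. The compartment difference was smaller in MTR4-null than in WT oocytes for 134 members and larger for 6, and over all rows kept it was smaller for 4073 and larger for 10197. A large WT difference was a condition of membership, so the count is a description.

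**Figure D3:**
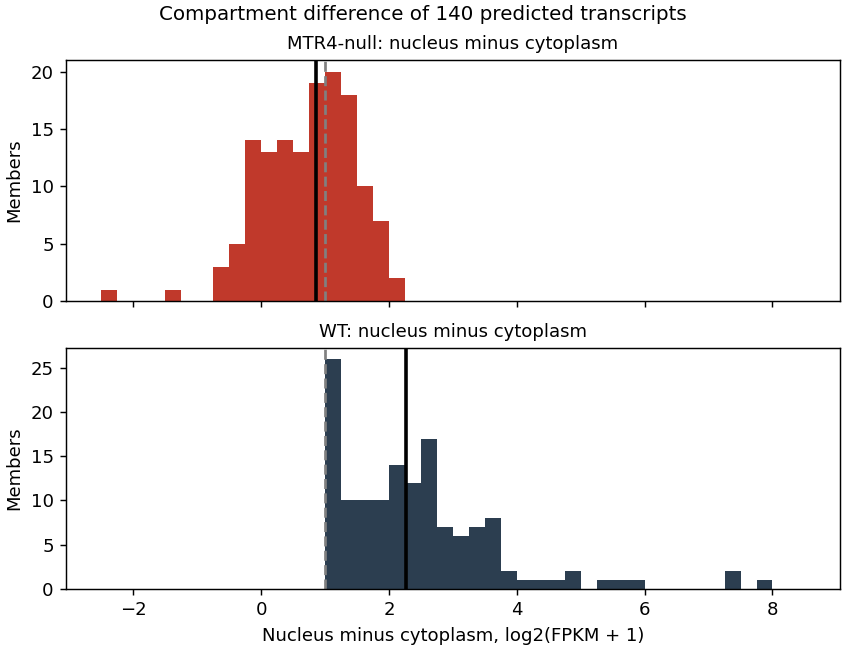
Histograms of the nucleus minus cytoplasm difference of log2(FPKM + 1) over the 140 members, with MTR4-null above WT and the number of members on the vertical axes. Solid lines are the medians, 0.86 in MTR4-null and 2.26 in WT, and dashed lines mark 2-fold. The WT histogram starts at the dashed line because the rule cuts it there, and the MTR4-null histogram spreads to both sides of it.

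The same thresholds were applied to other rows. Among named genes 491 met them, leaving out rows with a small RNA symbol, so small RNA genes under other symbols can remain. These 491 had a median of -0.92 in the nucleus, with 47.9% at least 2-fold lower. In the cytoplasm their median was 0.44, with 33.4% at least 2-fold higher. Their compartment difference had a median of 0.52 in MTR4-null oocytes and 1.69 in WT oocytes. The 84 small RNA genes that met the thresholds had larger medians in the same directions. In the nucleus the median was -1.55, with 65.5% at least 2-fold lower. In the cytoplasm it was 2.74, with quartiles of 0.00 and 5.68 and with 54.8% at least 2-fold higher. Many of the 84 were at 0 FPKM, 59 in the WT cytoplasm, 35 in the MTR4-null cytoplasm and 18 in the MTR4-null nucleus. Their medians thus rest in part on values of 0. The 492 other predicted transcripts differed by a median of 0.07 in the nucleus and -0.65 in the cytoplasm. The lower nuclear and higher cytoplasmic values in MTR4-null oocytes were thus found in named genes that met the thresholds as well as in predicted transcripts.

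The choice was also turned round, after the values had been seen. Applying the same thresholds with the genotypes exchanged gave 231 predicted transcripts, whose median compartment difference was 1.35 in MTR4-null oocytes, by the choice, and 0.20 in WT oocytes. Their median genotype difference was 0.88 in the nucleus and -0.10 in the cytoplasm, with signs opposite to those of the 140. Both choices shared 44 transcripts, which are 31.4% of the members and 19% of the 231. A set picked for a high nucleus and a low cytoplasm in either genotype was thus closer to even in the other genotype.

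The 12 members with the highest WT nucleus values illustrate the range. 4930470H14Rik, a lncRNA with 4 exons on chromosome 17 that shares 49.4% of its 31-base words with other genes, had 289 FPKM in MTR4-null nuclei and 478 FPKM in WT nuclei. In the cytoplasm it had 125 FPKM in MTR4-null and 1.72 FPKM in WT, the highest MTR4-null cytoplasmic value of the members and a log2 difference of 5.54. In WT nearly all of its signal stood in the nuclear column, while both MTR4-null columns were high.

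A130077B15Rik, a lncRNA with 3 exons on chromosome 10 that shares 37.8% of these words, had 135 FPKM in MTR4-null nuclei and 397 FPKM in WT nuclei, with 33.0 FPKM in MTR4-null cytoplasms and 0.681 FPKM in WT cytoplasms. A630089N07Rik, a lncRNA with 5 exons on chromosome 16 that shares 32.6% of its 31-base words with other genes, had 108 FPKM in MTR4-null nuclei and 336 FPKM in WT nuclei, with 40.7 FPKM in MTR4-null cytoplasms and 0.966 FPKM in WT cytoplasms. Both were lower in the MTR4-null nucleus, by -1.54 and -1.63 on the log2 scale, and higher in the MTR4-null cytoplasm, by 4.34 and 4.41. These 3 lncRNAs made up 30.8% of the members' summed FPKM in WT nuclei.

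Other highly expressed members differed less between nuclei. Gm20594, a coding model with 1 exon on chromosome 6, had 195 FPKM in MTR4-null nuclei and 213 FPKM in WT nuclei, and 95.6 FPKM in MTR4-null cytoplasms against 28.8 FPKM in WT cytoplasms. The pseudogene Gm17821 had 102 FPKM in MTR4-null nuclei and 164 FPKM in WT nuclei, with 30.5 FPKM in MTR4-null cytoplasms and 15.6 FPKM in WT cytoplasms. Gm10845, a lncRNA that shares 51.7% of its 31-base words with other genes, had 101 FPKM in MTR4-null nuclei and 142 FPKM in WT nuclei, with 45.4 FPKM in MTR4-null cytoplasms and 8.63 FPKM in WT cytoplasms. The nuclear differences of these 3 were under 2-fold.

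Hypk, listed as 2310003F16Rik, had 64.9 FPKM in MTR4-null nuclei and 69.7 FPKM in WT nuclei, with 27.1 FPKM in MTR4-null cytoplasms and 27 FPKM in WT cytoplasms. It was the most even of the 12 between genotypes in the cytoplasm. Its annotated model overlaps Serf2 on the same strand, so its reads can belong to either gene. The coding model 1810030O07Rik was lower in both MTR4-null compartments, by -0.71 in the nucleus (55.4 FPKM in MTR4-null and 91.3 FPKM in WT) and by -0.61 in the cytoplasm (28.0 FPKM in MTR4-null and 43.2 FPKM in WT).

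Among the 12, values above WT in both MTR4-null compartments were found for 2310039L15Rik, Gm19757 and E330020D12Rik, all lncRNAs. 2310039L15Rik had 126 FPKM in MTR4-null nuclei and 104 FPKM in WT nuclei, with 36.5 FPKM in MTR4-null cytoplasms and 5.87 FPKM in WT cytoplasms. Gm19757 had 92.3 FPKM in MTR4-null nuclei and 67.6 FPKM in WT nuclei, with 37.1 FPKM in MTR4-null cytoplasms and 18.8 FPKM in WT cytoplasms. E330020D12Rik stood out from these, with 265 FPKM in MTR4-null nuclei against 92.9 FPKM in WT nuclei and 103 FPKM in MTR4-null cytoplasms against 22.2 FPKM in WT cytoplasms.

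**Figure D4:**
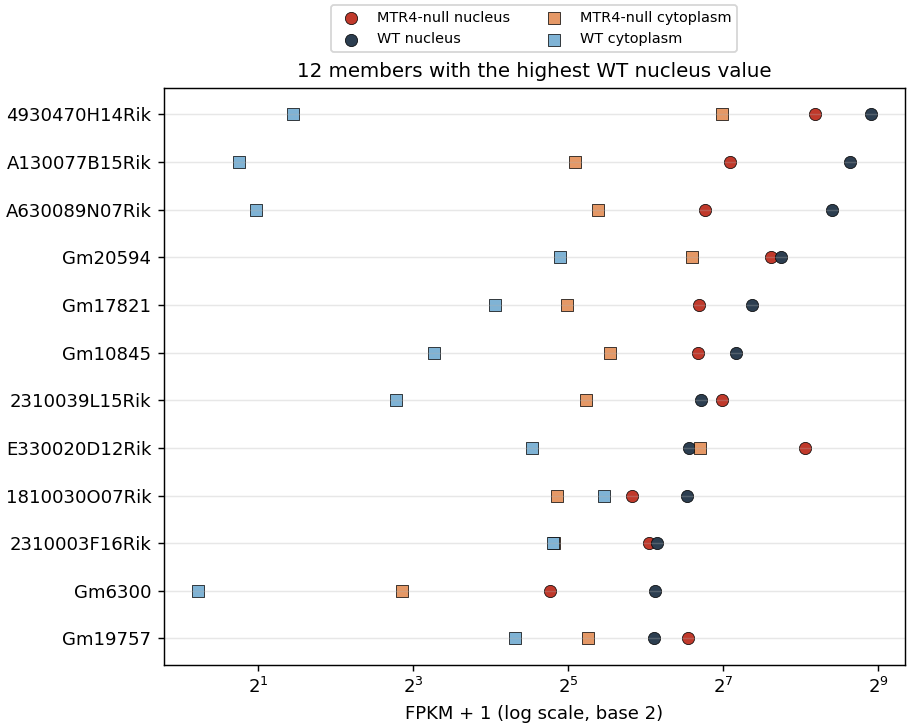
FPKM + 1 on a log axis for the 12 members with the highest WT nucleus values, circles for nuclei and squares for cytoplasms, with MTR4-null in red and orange and WT in dark and light blue. 4930470H14Rik, A130077B15Rik, A630089N07Rik and Gm6300 have the widest gap between the WT symbols, and in each the MTR4-null cytoplasm lies between the WT cytoplasm and the MTR4-null nucleus.

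A subset of 10 members, chosen after the values were seen, combined at least 20 FPKM in WT nuclei with less than 1 FPKM in WT cytoplasms. In 9 of them the MTR4-null nucleus stood at 28.1% to 39.4% of the WT nucleus, a narrow range for transcripts whose WT nuclear values ran from 22.1 to 397 FPKM. These 9 were A130077B15Rik, A630089N07Rik, Gm6300, 4930511M06Rik, Gm9159, A730017L22Rik, G530011O06Rik, Mcmdc2 (6030422M02Rik) and Fbxl12os (5730577I03Rik). All 9 belong to the 18 members with the lower nuclear and higher cytoplasmic pattern.

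Gm6300, a transcribed pseudogene on chromosome 3, had 26.1 FPKM in MTR4-null nuclei and 68.6 FPKM in WT nuclei, with 6.23 FPKM in MTR4-null cytoplasms and 0.162 FPKM in WT cytoplasms. Gm9159, on the X chromosome, had 19.9 FPKM in MTR4-null nuclei and 59.1 FPKM in WT nuclei, with 6.90 FPKM in MTR4-null cytoplasms and 0.125 FPKM in WT cytoplasms. A730017L22Rik had 13.6 FPKM in MTR4-null nuclei and 41.1 FPKM in WT nuclei, with 4.87 FPKM in MTR4-null cytoplasms and 0.539 FPKM in WT cytoplasms. The order of the 4 columns was the same in all 3.

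In 4930511M06Rik the MTR4-null nucleus had 17.4 FPKM and the WT nucleus 62.2 FPKM, with 6.61 FPKM in MTR4-null cytoplasms and 0.445 FPKM in WT cytoplasms. Mcmdc2 had 12.8 FPKM in MTR4-null nuclei and 33.7 FPKM in WT nuclei, with 2.99 FPKM in MTR4-null cytoplasms and 0.127 FPKM in WT cytoplasms. G530011O06Rik, opposite the microtubule-associated ubiquitin ligase gene Mid1, had 9.68 FPKM in MTR4-null nuclei and 28.6 FPKM in WT nuclei, with 2.66 FPKM in MTR4-null cytoplasms and 0.324 FPKM in WT cytoplasms. Mid1 itself was higher in the MTR4-null nucleus, at 25 FPKM against 10.3 FPKM in WT nuclei, and was at 20.9 FPKM in MTR4-null cytoplasms and 26.1 FPKM in WT cytoplasms.

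The exception among the 10 was Slc36a1os (4921508A21Rik), at 29.1 FPKM in MTR4-null nuclei and 20.2 FPKM in WT nuclei, or 144%, with 15.7 FPKM in MTR4-null cytoplasms and 0.820 FPKM in WT cytoplasms. In the MTR4-null cytoplasm the 10 members stood at 8.31% to 77.4% of their WT nucleus values, with a median of 9.95%. Relative to their own MTR4-null nucleus values they stood at 22.6% to 53.8%. The 19 named genes under the same limits had a median of 29.3% of WT in the MTR4-null nucleus, with a range from 0 to 89.2%, and 9.96% of the WT nucleus in the MTR4-null cytoplasm. In the MTR4-null nucleus the members' median was 34.0% and their lower quartile 33.3%, against 29.3% and 12.1% for the named genes. Named genes thus reached lower shares, while the cytoplasmic medians were close. At the upper end the members' wider range was due to Slc36a1os alone.

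**Figure D5:**
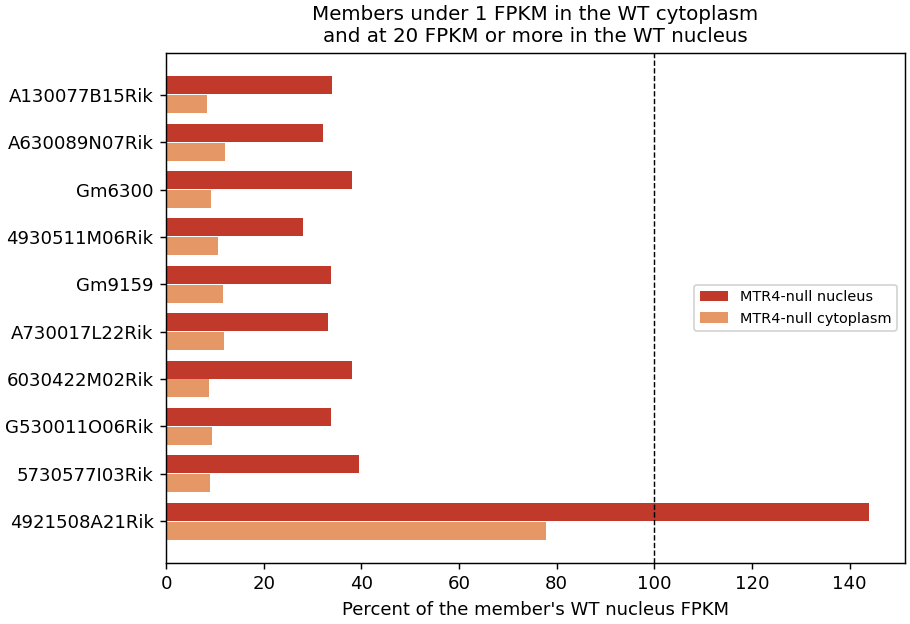
Bars give the MTR4-null nucleus (red) and the MTR4-null cytoplasm (orange) of 10 members as a percentage of the WT nucleus FPKM of the same member, with a dashed line at 100%. The red bars of 9 members end between 28.1% and 39.4%, and that of 4921508A21Rik ends at 144%.

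More widely, 64 members were below 1 FPKM in WT cytoplasms. Their median nuclear difference was -1.30, with 38 (59.4%) at least 2-fold lower and 3 (4.69%) at least 2-fold higher in MTR4-null, against 12.3% and 23.9% of all rows kept. Their median cytoplasmic difference was 1.17, with 37 (57.8%) higher and 0 lower, against 15.0% and 21.4% of all rows kept, a direction that a value near 0 in WT fixes. The 76 members at 1 FPKM or more in the WT cytoplasm had a median of -0.53 in the nucleus, with 26 (34.2%) lower and 9 (11.8%) higher, and of 0.28 in the cytoplasm, with 22 (28.9%) higher and 11 (14.5%) lower.

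Promoter windows from RefSeq (build GRCm38.p6, 250 bases before to 50 bases after the annotated start) were found for 100 members in 107 windows. They differ from the build mm9 of the authors' processing and serve here for sequence alone. CpG dinucleotides, the sites of DNA methylation that cluster in the promoters of broadly expressed genes, were fewer in the members' windows than in those of the other predicted transcripts, and about as many as in all windows. The median was 8 CpG, against 20 in the other predicted transcripts and 7 in all 32851 windows, and 45.8% of the members' windows held at least 10 CpG, against 72.4% and 43.5%. Part of this gap followed the annotated class: members classed as lncRNA had a median of 5 CpG, against 7 in other predicted lncRNAs, and coding members 16, against 21 in other coding predictions.

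The motif GGGCGG, the core of the GC box, occurred on either strand in 43.9% of the members' windows, 57.2% of those of the other predicted transcripts and 35.7% of all windows. CCAAT occurred in 39.3%, 38.9% and 37.4%, and TATAAA in 8.41%, 6.18% and 13.6%, in the same order. CCAAT and GGGCGG can share bases where they lie on opposite strands, and a match is only a run of letters. The windows of members below and above the 2-fold line in the cytoplasm had the same median of 8 CpG.

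The windows of 4 members are printed 5′ to 3′ with each CpG in capitals. They were taken from the subset nearly absent from WT cytoplasms and, for the last, from the members with the highest WT nucleus values. Each of these members has a single window, under its own symbol. The first 3 belong to the 9 members at about the same share of WT in the MTR4-null nucleus, and the last was higher in both MTR4-null compartments. The first lies at chr10:122569842-122570141, the second at chr16:98082390-98082689, the third at chr2:130906347-130906646 and the fourth at chr1:153414184-153414483, all on the minus strand of GRCm38.p6.
A130077B15Rik: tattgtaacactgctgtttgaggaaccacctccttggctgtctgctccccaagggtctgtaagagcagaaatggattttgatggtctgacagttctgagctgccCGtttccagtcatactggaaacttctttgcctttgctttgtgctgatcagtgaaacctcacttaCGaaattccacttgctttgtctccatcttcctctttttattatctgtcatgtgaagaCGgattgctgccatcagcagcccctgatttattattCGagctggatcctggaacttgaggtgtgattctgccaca
A630089N07Rik: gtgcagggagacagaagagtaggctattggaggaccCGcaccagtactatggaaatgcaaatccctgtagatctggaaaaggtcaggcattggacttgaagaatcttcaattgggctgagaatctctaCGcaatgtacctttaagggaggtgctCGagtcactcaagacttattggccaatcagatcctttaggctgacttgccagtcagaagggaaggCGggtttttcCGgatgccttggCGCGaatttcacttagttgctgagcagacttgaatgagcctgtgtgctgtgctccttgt
A730017L22Rik: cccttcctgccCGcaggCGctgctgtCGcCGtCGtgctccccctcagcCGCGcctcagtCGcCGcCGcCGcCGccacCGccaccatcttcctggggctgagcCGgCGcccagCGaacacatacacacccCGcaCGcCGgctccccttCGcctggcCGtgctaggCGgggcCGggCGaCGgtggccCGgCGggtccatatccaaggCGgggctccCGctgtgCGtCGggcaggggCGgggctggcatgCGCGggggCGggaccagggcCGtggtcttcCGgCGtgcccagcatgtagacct
E330020D12Rik: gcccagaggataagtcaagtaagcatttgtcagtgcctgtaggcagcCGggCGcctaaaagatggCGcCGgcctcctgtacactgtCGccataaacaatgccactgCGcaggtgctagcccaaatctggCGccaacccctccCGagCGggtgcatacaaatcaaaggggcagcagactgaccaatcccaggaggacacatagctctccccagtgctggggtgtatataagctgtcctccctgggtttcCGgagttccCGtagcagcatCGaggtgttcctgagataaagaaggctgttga
They hold 4, 7, 38 and 12 CpG in this order. The model of A730017L22Rik overlaps 4930402H24Rik on the same strand, so its reads can belong to either locus. The coding gene Atrn starts within 1000 bases of it on the other strand. A130077B15Rik and A730017L22Rik, with 4 and 38 CpG, had MTR4-null nucleus values of 34.1% and 33.2% of WT. A relation between CpG content and these shares was not tested.

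Members at least 2-fold higher in both MTR4-null compartments were 7 lncRNAs, 4 coding genes and 1 other locus, and 8 of these 12 overlapped a coding gene on the opposite strand. The nearest to the cap were A230050P20Rik, 4933439C10Rik and A630055G03Rik, with ratios of 3.170, 3.056 and 3.038 between the MTR4-null and WT nuclei after adding 1 FPKM. A230050P20Rik is Shfl, an interferon-induced inhibitor of ribosomal frameshifting, and had 20.6 FPKM in MTR4-null nuclei and 5.83 FPKM in WT nuclei, with 14.6 FPKM in MTR4-null cytoplasms and 0.205 FPKM in WT cytoplasms. A630055G03Rik is Rmi2, with 60.4 FPKM in MTR4-null nuclei and 19.2 FPKM in WT nuclei, and with 50.1 FPKM in MTR4-null cytoplasms and 2.94 FPKM in WT cytoplasms. Both MTR4-null columns of each gene lay above both WT columns.

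D330041H03Rik, a lncRNA with 1 exon on chromosome 17, opposite the lipid transporter gene Abca3, had 50.1 FPKM in MTR4-null nuclei and 21 FPKM in WT nuclei, with 51.2 FPKM in MTR4-null cytoplasms and 2.43 FPKM in WT cytoplasms. Gm10638, opposite the ubiquitin ligase gene Siah1a, had 18.1 FPKM in MTR4-null nuclei and 5.90 FPKM in WT nuclei, with 18.2 FPKM in MTR4-null cytoplasms and 1.32 FPKM in WT cytoplasms. 1810019D21Rik, opposite the splicing regulator gene Esrp2, had 30.1 FPKM in MTR4-null nuclei and 10.3 FPKM in WT nuclei, with 25.6 FPKM in MTR4-null cytoplasms and 0.884 FPKM in WT cytoplasms. In the first 2 of these the MTR4-null nucleus and cytoplasm were nearly equal, with the cytoplasm slightly the higher, while the WT nucleus stood well above the WT cytoplasm.

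E130309D02Rik, A330049N07Rik and 4933439C10Rik completed the largest nuclear differences. E130309D02Rik had 21.7 FPKM in MTR4-null nuclei and 6.49 FPKM in WT nuclei, with 18.2 FPKM in MTR4-null cytoplasms and 1.97 FPKM in WT cytoplasms. A330049N07Rik had 25.4 FPKM in MTR4-null nuclei and 8.16 FPKM in WT nuclei, with 8.36 FPKM in MTR4-null cytoplasms and 1.26 FPKM in WT cytoplasms. 4933439C10Rik had 20.6 FPKM in MTR4-null nuclei and 6.05 FPKM in WT nuclei, with 9.25 FPKM in MTR4-null cytoplasms and 0.359 FPKM in WT cytoplasms. Their log2 differences lay between 1.53 and 1.61 in the nucleus and between 2.05 and 2.92 in the cytoplasm.

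Above the cap lay 11 predicted transcripts that met the WT thresholds and had an MTR4-null nucleus at 4 or more times WT. The nearest to it were Gm7102, A330069E16Rik and 4732471D19Rik, with ratios of 4.360, 4.413 and 4.949. A330069E16Rik had 262 FPKM in MTR4-null nuclei and 58.7 FPKM in WT nuclei, with 235 FPKM in MTR4-null cytoplasms and 1.11 FPKM in WT cytoplasms. With these 11 included, 23 of 151 transcripts (15.2%) had a nuclear value at least 2-fold higher in MTR4-null and the median nuclear difference was -0.71. No predicted transcript that met the WT thresholds lay between 3.170 and 4.360, so that the cap falls in a gap.

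Members at the other end were nearly lost from the MTR4-null nucleus. 2310043L19Rik, a lncRNA with 3 exons on chromosome 1, had 0.0974 FPKM in MTR4-null nuclei and 11.1 FPKM in WT nuclei, with 0.135 FPKM in MTR4-null cytoplasms and 0 in the WT cytoplasm. 1700020G17Rik, opposite the cell cycle factor gene E2f7, had 0.237 FPKM in MTR4-null nuclei and 11 FPKM in WT nuclei, and was listed at 0 in both cytoplasms. Msantd1 (A930005I04Rik), whose model overlaps the huntingtin gene Htt on the same strand, had 0.443 FPKM in MTR4-null nuclei and 8.86 FPKM in WT nuclei, with 0.417 FPKM in MTR4-null cytoplasms and 0.0270 FPKM in WT cytoplasms. These transcripts had a value in the WT nucleus and next to none in the other 3 columns.

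1700020D05Rik followed the same course, with 0.222 FPKM in MTR4-null nuclei and 6.35 FPKM in WT nuclei. 4933433G19Rik had 1.24 FPKM in MTR4-null nuclei and 12.8 FPKM in WT nuclei, with 0.381 FPKM in MTR4-null cytoplasms and 2.52 FPKM in WT cytoplasms. D430041D05Rik had 0.570 FPKM in MTR4-null nuclei and 8.30 FPKM in WT nuclei, with 0.127 FPKM in MTR4-null cytoplasms and 3.63 FPKM in WT cytoplasms, and Gm10466 had 0.0319 FPKM in MTR4-null nuclei and 6.06 FPKM in WT nuclei, with 0.175 FPKM in MTR4-null cytoplasms and 2.18 FPKM in WT cytoplasms. The last 3 belong to the 10 members lower in both MTR4-null compartments, together with Radx, Cfap47 and Lrmda. Radx (D330045A20Rik) had 1.01 FPKM in MTR4-null nuclei and 6.02 FPKM in WT nuclei, with 0.0964 FPKM in MTR4-null cytoplasms and 2.07 FPKM in WT cytoplasms.

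Gm5643 stood apart. This single-exon pseudogene on the X chromosome, which shares 81.9% of its 31-base words with 26 other genes, had 2.87e-05 FPKM in MTR4-null nuclei and 7.66 FPKM in WT nuclei, and 4.23 FPKM in MTR4-null cytoplasms against 6.86e-05 FPKM in WT cytoplasms. Reads can be assigned to it or to its copies. Sharing of at least 50% was found in 9 members, among them Gm5512, 1700030N03Rik, Gm11127, Gm7609 and the defensin gene Defa40 (Gm15292), and their values are uncertain for the same reason.

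Other members were more than 2-fold higher in the cytoplasm of MTR4-null oocytes and differed by less than 2-fold between nuclei. Mplkip (2810021B07Rik), whose human counterpart is mutated in a form of trichothiodystrophy, had 25.6 FPKM in MTR4-null nuclei and 17.3 FPKM in WT nuclei, with 15.3 FPKM in MTR4-null cytoplasms and 0.995 FPKM in WT cytoplasms. Ctrcos (1810035I16Rik) had 29.5 FPKM in MTR4-null nuclei and 15.5 FPKM in WT nuclei, with 24.1 FPKM in MTR4-null cytoplasms and 0.362 FPKM in WT cytoplasms, while Ctrc on the opposite strand stayed below 0.1 FPKM in each column. Zfas1 (1500012F01Rik), a host of small nucleolar RNAs, had 11.5 FPKM in MTR4-null nuclei and 13.7 FPKM in WT nuclei, with 19.4 FPKM in MTR4-null cytoplasms and 4.02 FPKM in WT cytoplasms. For Zfas1 the MTR4-null cytoplasm was the highest of the 4 columns.

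The small nucleolar RNA Snord12, which lies inside Zfas1, was listed at 389 FPKM in MTR4-null nuclei and at 0 in the other columns. Snhg14 (C230091D08Rik), a host transcript of the Prader-Willi region that runs opposite the ubiquitin ligase gene Ube3a, had 2.67 FPKM in MTR4-null nuclei and 6.70 FPKM in WT nuclei, with 0.947 FPKM in MTR4-null cytoplasms and 1.98 FPKM in WT cytoplasms. Ube3a had 28.2 FPKM in MTR4-null nuclei and 22.7 FPKM in WT nuclei, with 20.9 FPKM in MTR4-null cytoplasms and 23.5 FPKM in WT cytoplasms. Host and opposite gene thus differed between nuclei in opposite directions, that of Ube3a by less than 2-fold.

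Of the coding genes on the strand opposite to members, 50 were in the table and not members themselves, and 35 of these were kept. C130026I21Rik, opposite Gm7609, is itself a member, with a WT compartment difference of 2.31, and was left out of these counts. With it included, 48 members had a partner in the table. In WT oocytes the nucleus was the higher compartment, by at least 2-fold, for 5 of the 35 (14.3%), against 12.4% of all rows kept, and their median compartment difference was -0.01. Between nuclei 5 (14.3%) were at least 2-fold higher and 2 (5.71%) lower in MTR4-null, against 23.9% and 12.3% of all rows kept, with a median of 0.10. Between cytoplasms 1 (2.86%) was higher and 6 (17.1%) were lower, against 15.0% and 21.4%, with a median of -0.33. The medians of the partners thus lay nearer to those of all rows kept than to those of the members. Txnip, the thioredoxin inhibitor gene opposite Gm15441, had 404 FPKM in the nuclei of both genotypes, with 294 FPKM in MTR4-null cytoplasms and 505 FPKM in WT cytoplasms. The sources used here do not state whether the counting used strand, so reads of a member and of its opposite gene may not have been separated.

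At the threshold of 5 FPKM, C030006K11Rik, 4931402G19Rik and G730013B05Rik lay just inside, at 5.02, 5.09 and 5.11 FPKM in WT nuclei, and 1700018L24Rik, Gm2516 and 4930528P14Rik just outside, at 4.98, 4.95 and 4.89 FPKM. At the threshold of 2 for the WT compartment ratio, 4930473A06Rik, D430041D05Rik and 2010109K11Rik lay just inside, at 2.001, 2.007 and 2.010, and 2410006H16Rik, 2400003C14Rik and 2410004B18Rik just outside, at 1.991, 1.984 and 1.977.

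Of a list drawn up for nuclear long noncoding RNAs, 11 genes were kept. In WT oocytes the nucleus was the higher compartment, by at least 2-fold, for 8 of the 11, with a median compartment difference of 1.56, and in MTR4-null oocytes for 5, with a median of 0.93. Over all rows kept the shares were 12.4% in WT and 17.0% in MTR4-null. Between nuclei 2 were at least 2-fold higher and 4 lower in MTR4-null, and between cytoplasms 4 were higher and 0 lower. The shares over all rows kept were 23.9% higher and 12.3% lower in the nucleus, and 15.0% higher and 21.4% lower in the cytoplasm. The 2 list genes higher in the MTR4-null nucleus were Tug1 and H19. Tug1 had 36.0 FPKM in MTR4-null nuclei and 11.5 FPKM in WT nuclei, and its WT cytoplasm was higher, at 17.3 FPKM. H19 had 1.30 FPKM in MTR4-null nuclei and 0 in WT nuclei. Malat1, a nuclear speckle RNA, had 173 FPKM in MTR4-null nuclei and 181 FPKM in WT nuclei, with 69.6 FPKM in MTR4-null cytoplasms and 8.63 FPKM in WT cytoplasms. Kcnq1ot1, transcribed antisense within the imprinted Kcnq1 locus, had 6.27 FPKM in MTR4-null nuclei and 16.0 FPKM in WT nuclei, with 2.04 FPKM in MTR4-null cytoplasms and 0.110 FPKM in WT cytoplasms. Both had a smaller gap between compartments in MTR4-null than in WT, and so did Neat1, Xist, Airn, Meg3, Nespas and Snhg11. Rian, Tug1 and H19 had a larger one. The genotypes were close for Airn, at 1.67 in MTR4-null against 1.73 in WT, and for Rian, at 1.83 against 1.56.

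Among exosome genes, all 13 of the list were kept. In the MTR4-null nucleus 4 were at least 2-fold higher and 0 lower, against 23.9% and 12.3% of all rows kept. In the MTR4-null cytoplasm 2 were higher and 3 lower, against 15.0% and 21.4% of all rows kept. Exosc6 differed most, at 77.9 FPKM in MTR4-null nuclei against 6.60 FPKM in WT nuclei and 78.7 FPKM in MTR4-null cytoplasms against 7.11 FPKM in WT cytoplasms. Of 13 cofactor genes kept, 3 were higher and 1 was lower by this measure in the MTR4-null nucleus. In the MTR4-null cytoplasm 1 was higher and 3 were lower, beside the same shares of all rows kept. The lower one in the nucleus was Skiv2l2, and the higher ones were Zfc3h1, Srrt and Ncbp1, which encode a subunit of an exosome adaptor, a partner of the cap-binding complex and a subunit of that complex.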

How the data were processed

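Total RNA was sequenced as paired ends of 150 bp from fragments of 300 to 400 bp, per the labels' protocols. TopHat2 2.1.1, Cufflinks 2.2.1 and the build mm9 are named in the submitters' processing notes, which give no settings. The values are FPKM, which the authors deposited as 1 column for each genotype and compartment. A final row without a gene name, which equals the sum of the others, was left out. Among the members' values above 0, 55.7%, 48.6%, 33.1% and 51.9% in the MTR4-null nucleus, WT nucleus, MTR4-null cytoplasm and WT cytoplasm end in repeated decimals of 1/3 or 2/3, so the number of values behind each column is uncertain. The planned limma fit needed values of single libraries and was not run.

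Differences were computed on log2(FPKM + 1) and called from 2-fold. Rows kept had at least 1 FPKM in at least 1 column, which left 14270. The members and gene lists were chosen with earlier results of these data known. Named members were the 12 highest in the WT nucleus, the 8 largest and 8 smallest nuclear differences, the 8 largest cytoplasmic differences, the 6 highest in the MTR4-null cytoplasm, the 3 nearest each threshold on each side, members with a newer name or beside a named gene, and list genes. Gm9159, A730017L22Rik, 4930511M06Rik, G530011O06Rik, Txnip, Mid1, 1700025N23Rik, 1700092M07Rik and the members with shared sequence were named after their values were seen. Class, exons and overlaps came from RefSeq and GENCODE on GRCm38, which is not the build of the table, so no coordinate was matched to it. The counting was tested on simulated data. Python 3.11.15 with pandas 2.3.3, numpy 2.4.6 and matplotlib 3.10.9 was used.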

Additional observations from a re-analysis of the deposited data

How the results depend on the processing

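No paired analysis was possible because the columns carry no libraries, and for the same reason no replicate could be left out. Values below are shares of members at least 2-fold apart. With a pseudocount of 5 FPKM in place of 1, 26.4% were lower in the MTR4-null nucleus, 20% were higher and 0% lower in the MTR4-null cytoplasm, and 14.3% were higher in the nucleus than in the cytoplasm of MTR4-null oocytes. With a pseudocount of 0.1, 12.9% were lower in the MTR4-null cytoplasm. The share higher in the nucleus of MTR4-null oocytes was 40.0% as deposited, 15.7% after centring on rows expressed in every column, 16.4% after centring on all rows kept, 15.7% after rescaling to the sum without small RNA genes and 13.6% after quantile normalization, which put the median compartment difference of all rows kept in MTR4-null between -0.02 and 0.06 in place of 0.52. Those scalings kept the shares lower in the MTR4-null nucleus between 50.7% and 56.4% and higher in the MTR4-null cytoplasm between 42.1% and 50%. At 3-fold, 24.3% were lower and 2.86% higher in the nucleus, 27.9% higher and 1.43% lower in the cytoplasm, and 9.29% higher in the MTR4-null nucleus than in its cytoplasm. A WT compartment ratio of at least 3 gave 3.03% lower in the cytoplasm, Gm symbols alone gave 12.1%, and leaving out the condition on the MTR4-null nucleus gave 15.2% higher in the nucleus. Chosen after seeing the data, leaving out members opposite a coding gene gave 4.60% higher in the nucleus, and members at 20 FPKM or more in the WT nucleus gave 69.4% higher in the nucleus than in the cytoplasm of MTR4-null oocytes. The cause of these shifts was not tested. A WT nucleus limit of 10 FPKM, Rik symbols alone, noncoding members alone and leaving out members with shared sequence moved none of these 5 shares by over 1.5 times. The sign of each median was kept in all of these settings. For the 29 members named by size, 522 recomputed differences held 44 that dropped below 2-fold and 15 that passed it. Of those at least 2-fold as deposited, 0 changed sign. Changes of sign among smaller differences were not counted. Without a filter on low rows, 14.7% and 7.54% of all rows were higher and lower in the MTR4-null nucleus, and 9.19% and 13.1% in the MTR4-null cytoplasm. Depth is unknown, so no limit of detection is given for values near 0.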
